A study of Ovis aries with 91 samples.

Results

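Of 12667 genes listed for both whole tissue and isolated cardiomyocytes of sheep atrial appendages, 11 had a lower mean in tissue of sheep with pacing-induced atrial fibrillation while their mean in isolated cardiomyocytes stayed close to that of controls. They were chosen by their measured values: a mean level of at least 1 log2 CPM (reads scaled to library size, on a log2 scale) in both preparations, a paced change of -0.8 or lower in tissue, and a paced change of -0.2 or higher in cardiomyocytes. The paced change is the mean of the transition and chronic samples of both appendages minus the mean of the control samples. At that level were 10756 genes, of which 154 met the tissue threshold. Of these, 81 were also at -0.8 or lower in cardiomyocytes, 62 lay between both thresholds, and 11 met the rule. A list of 9 identifiers was left out by the rule, and 0 of those met it.

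Fibrillation was induced with a tachypacing device in the right atrium. Each appendage preparation was profiled by RNA-seq from 9 sheep, 3 each of control, transition and chronic, with 1 left and 1 right sample per sheep (18 samples). Control sheep S3 and S4 are labelled sham, and C1 is labelled control, with sham in some of its titles. The labels say neither how long transition and chronic sheep were paced nor how cardiomyocytes were isolated. Tissue and cardiomyocytes shared 7 sheep of 11 in all: transition sheep D24 and D27, chronic sheep D16 and D19 and controls C1, S3 and S4 gave both. D30 and D15 gave tissue alone, and D23 and D20 gave cardiomyocytes alone. Appendage tissue and cardiomyocyte samples carry different lane-like technical replicate labels, so this and the preparation cannot be told apart. The posterior left atrium was profiled as whole tissue from 12 sheep, 6 in transition and 6 controls. Of these, 4 transition and 3 control sheep carry G numbers and gave no appendage sample, and the titles of the 4 transition sheep read saline, which no label explains. The other 5 (D24, D27, C1, S3 and S4) are also in the appendage data. Their lane-like technical replicate labels differ from those of the G sheep, so this and the set of sheep cannot be told apart. The sources used here do not state breed, sex or age.

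Atrial appendage tissue holds cardiomyocytes together with fibroblasts, endothelial and mural cells, nerves, fat and immune cells, and fibrillating atria are known for remodelling of both the muscle and the cells around it. RNA from whole tissue is a sum over all of these, while a cardiomyocyte isolation is meant to keep the muscle cells. In either bulk sample, fewer cells of a type and less RNA per cell cannot be told apart. The files give Ensembl sheep identifiers with no names, so the 11 genes are reported by identifier, without a role, position or sequence, and cell type markers were not used here.

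Listed reads came to 6241967 to 22382458 per tissue sample and 5305524 to 12434418 per cardiomyocyte sample. Most of the 11 genes were low: their mean tissue levels were 1.52 to 5.85 log2 CPM with a median of 2.59, against a median of 4.54 over the 10756 genes. In reads per tissue library, they went as low as 1 and as high as 2035. The highest was ENSOARG00000010191 (median 658 reads per tissue library), followed by ENSOARG00000011110 (median 345 reads), and the lowest by mean level was ENSOARG00000014651 (median 27.5 reads). The SD of tissue levels over the 3 control sheep, sides averaged, had a median of 0.38 on the log2 scale over the 11 genes and 0.23 over all. In cardiomyocytes it was 0.53 over the 11 genes and 0.21 over all. It was largest in tissue for ENSOARG00000011100 (0.98) and ENSOARG00000016949 (0.77) and smallest for ENSOARG00000018855 and ENSOARG00000010191 (both 0.13).

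**Figure D1:**
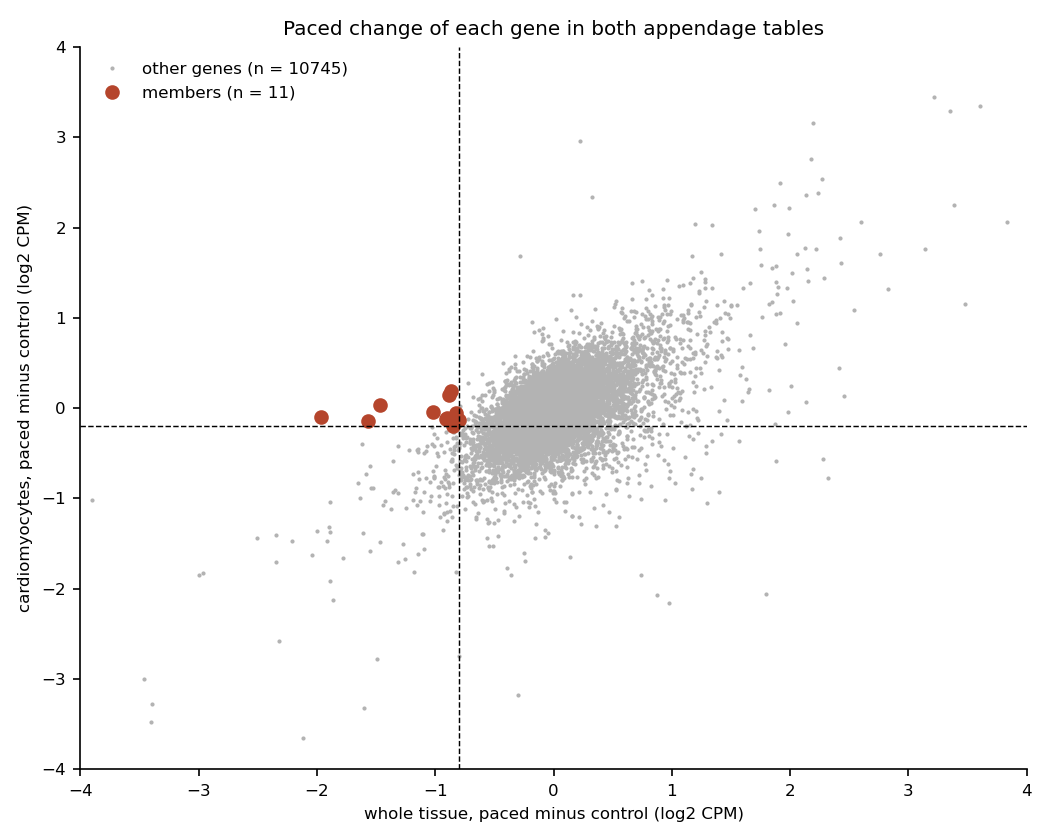
Paced minus control difference of each of 10756 genes in whole tissue (x axis) and isolated cardiomyocytes (y axis), both in log2 CPM, with the 11 selected genes in red and the thresholds of -0.8 and -0.2 as dashed lines. Most of the 11 lie close to the tissue threshold, 3 reach below -1.4 in tissue, and 2 genes fall outside the axes.

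The values that chose the genes are given as a description, without a test. The changes were largest for ENSOARG00000011100, at -1.97 in tissue and -0.10 in cardiomyocytes. It was followed by ENSOARG00000014651 (tissue -1.57, cardiomyocytes -0.14), ENSOARG00000016949 (tissue -1.47, cardiomyocytes 0.03) and ENSOARG00000010191 (tissue -1.02, cardiomyocytes -0.04). The other 7 had tissue changes of -0.91 to -0.80: ENSOARG00000000877, ENSOARG00000011110, ENSOARG00000015066, ENSOARG00000018855, ENSOARG00000010170, ENSOARG00000010082 and ENSOARG00000011731. As folds, control over paced, the 11 ran from 3.92 for ENSOARG00000011100 to 1.74 for ENSOARG00000011731. The cardiomyocyte changes had limma SEs from 0.24 for ENSOARG00000010170 to 0.47 for ENSOARG00000011100, so falls in cardiomyocytes may have been missed. Whether the paced change differed between tissue and cardiomyocytes was not tested. Just inside the tissue threshold stood ENSOARG00000011731 (-0.801) and ENSOARG00000010082 (-0.824), and just outside it ENSOARG00000020423 (-0.798) and ENSOARG00000006500 (-0.792). Just inside the cardiomyocyte threshold stood ENSOARG00000010170 (-0.199) and ENSOARG00000014651 (-0.142), and just outside it ENSOARG00000009825 (-0.214) and ENSOARG00000015675 (-0.221).

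In tissue, ENSOARG00000011100 had left appendage levels of 3.22, 4.87 and 3.01 log2 CPM in controls C1, S3 and S4, 2.13, 2.44 and 2.09 in transition sheep D24, D27 and D30, and 0.77, 0.85 and 0.15 in chronic sheep D15, D16 and D19. On the right it had 2.74, 3.91 and 2.07 in the same controls, 2.36, 1.17 and 1.31 in transition and 1.10, -0.03 and 1.67 in chronic sheep. The left groups did not overlap (share of all genes not counted), the right ones did, and S3 was the highest sample on both sides. ENSOARG00000016949 had the same 2 high samples: S3 was at 4.30 on the left and 4.27 on the right, while the other 4 control samples lay between 2.84 and 3.16. Its 6 transition samples spanned 1.54 to 3.46 with a median of 2.33, and its 6 chronic samples -0.03 to 2.93 with a median of 1.46. After removing group means, these 2 genes were the most alike pair of all 55 across the 18 tissue samples (Pearson's r = 0.79) and were also alike across the 18 cardiomyocyte samples (r = 0.61). These correlations, which share libraries, are a description.

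ENSOARG00000010082 and ENSOARG00000011110 were the only 2 of the 11 with every paced tissue sample below every control sample; this held for 0.551% of the 12333 tissue genes tested. ENSOARG00000010082 spanned 2.45 to 3.55 log2 CPM in the 12 paced samples with a median of 3.08, against 3.69 to 4.22 in the 6 control samples with a median of 3.81. ENSOARG00000011110 spanned 4.27 to 5.35 with a median of 5.19 in paced samples, against 5.44 to 6.61 with a median of 5.80 in control samples. Paced and control samples overlapped for the other 9. ENSOARG00000014651 held the lowest sample of all, the right appendage of chronic sheep D19 at -2.36 log2 CPM, where 1 read was listed. ENSOARG00000010191 was uneven among chronic sheep: its right appendage level was 6.78 in D15 but 2.87 in D16 and 3.22 in D19, against 5.98, 5.89 and 5.98 in controls C1, S3 and S4. By limma, 6 of the 11 were lower in paced tissue beside 3.53% of all genes, and 0 of the 11 passed in cardiomyocytes beside 10.4% of all genes in either direction (0 of the 11 also at an unadjusted p under 0.05). Since the rule used both contrasts, nothing is read from these counts.

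**Figure D2:**
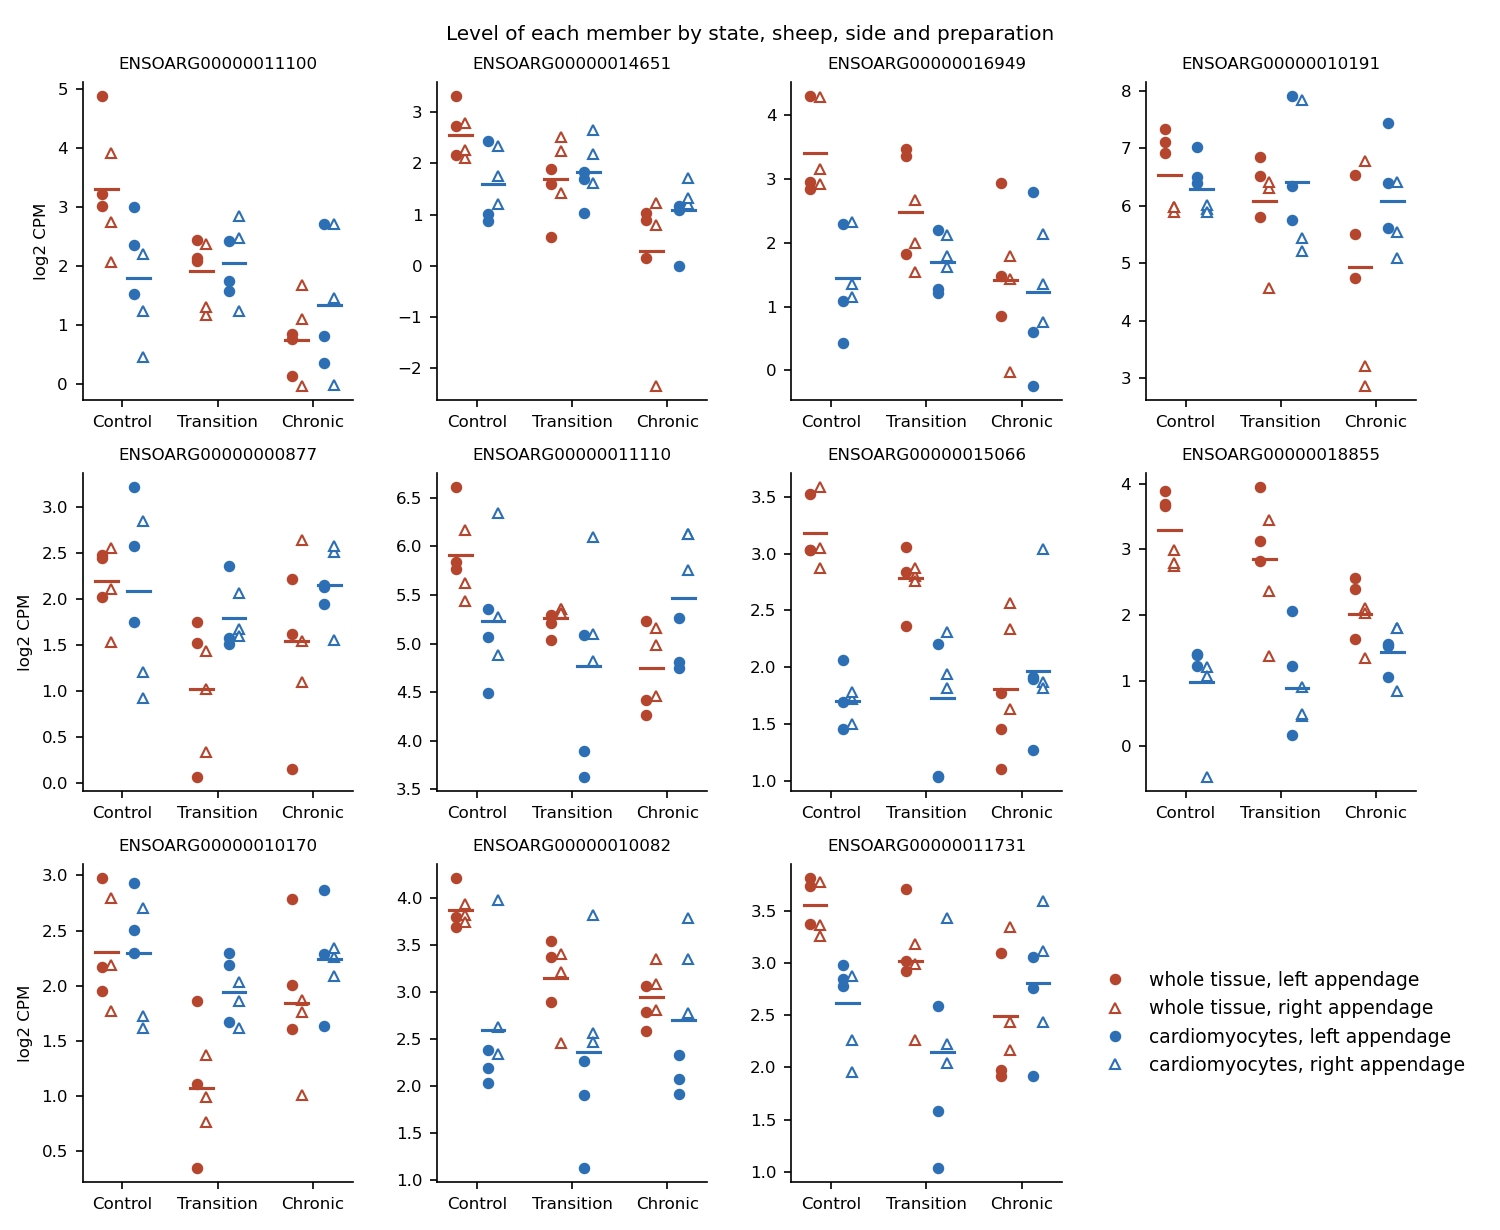
Level of each of the 11 genes (log2 CPM) in control, transition and chronic sheep, 3 sheep per state and side, in whole tissue (red) and isolated cardiomyocytes (blue); filled circles are left and open triangles right appendages, and bars are means of 6 samples. In tissue the chronic mean is below the control mean for all 11, and cardiomyocyte samples of the states overlap.

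Each side and state contributed to the tissue change by which the genes were chosen. For all 11 genes the mean was below control in left transition, left chronic, right transition and right chronic tissue. The median change over the 11 was -0.72 in left transition, -1.52 in left chronic, -0.65 in right transition and -0.99 in right chronic tissue, with medians over all genes between -0.013 and 0.014. Transition and chronic sheep share their controls, so the difference between them was tested directly, a contrast the rule did not use. Chronic tissue was below transition tissue for 9 of the 11 genes, with a median difference of -0.83 on the log2 scale against 0.002 over all genes. By limma with Benjamini-Hochberg adjustment over all genes, 0 of the 11 passed 0.05, beside 0.114% of all genes in either direction. At an unadjusted p under 0.05 there were 7 of the 11, beside 10.8% of all genes, and 0 of the 11 passed by voom on the recovered reads. Those 7 became 2 without transition sheep D24, 4 without chronic sheep D19 and 2 in the right appendage alone. The median became -0.55 without D24, and 9 of the 11 differences were negative whichever sheep was left out.

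The lowest adjusted p was that of ENSOARG00000015066. Its left levels were 3.04, 3.53 and 3.03 log2 CPM in controls C1, S3 and S4, 2.84, 2.37 and 3.06 in transition sheep D24, D27 and D30, and 1.10, 1.77 and 1.45 in chronic sheep D15, D16 and D19. On the right they were 3.59, 2.88 and 3.05 in controls, 2.80, 2.87 and 2.76 in transition and 1.63, 2.34 and 2.57 in chronic sheep. Chronic samples lay below every transition sample on each side (share of all genes not counted), and the difference was -0.97 ± 0.23 (limma estimate ± SE, adjusted p = 0.135). It passed without the sheep as a random effect (limma, adjusted p = 0.0392). That fit counts the left and right samples of 1 sheep as separate animals, so nothing is read from the pass. Without chronic sheep D15 another gene, ENSOARG00000010191, was the 1 of the 11 that passed, at -1.99 ± 0.32 (limma, adjusted p = 0.0220). The next were ENSOARG00000011100 at -1.17 ± 0.43 (adjusted p = 0.318) and ENSOARG00000014651 at -1.42 ± 0.55 (adjusted p = 0.340). The other direction was seen in ENSOARG00000010170 (0.76 ± 0.33, adjusted p = 0.412) and ENSOARG00000000877 (0.52 ± 0.41, adjusted p = 0.678), whose transition samples were the lower ones. ENSOARG00000010170 spanned 1.77 to 2.98 log2 CPM in control tissue, 0.35 to 1.86 in transition and 1.01 to 2.79 in chronic tissue, with medians of 2.18, 1.05 and 1.82.

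In cardiomyocytes, the group means lay mostly below control on the left and above it on the right, although no gene's side difference passed its test. The median change over the 11 was -0.37 in left transition and -0.21 in left chronic cardiomyocytes, but 0.20 in right transition and 0.32 in right chronic cardiomyocytes. The left mean was below control in 8 of the 11 in transition and 10 of the 11 in chronic sheep, beside 49.3% and 49.6% of all genes. The right mean was below control in 3 of the 11 in each, beside 51.2% and 51.6% of all genes. The rule used the change over both sides, which was -0.20 to 0.19 for the 11. A side difference in them therefore tends to show as opposite signs, and nothing is read from the signs. The change on the left minus the change on the right, which the rule did not use, was negative for 10 of the 11, with a median of -0.52 against 0.01 over all genes, of which 48.5% were negative. Of these side differences, 0 of the 11 passed by limma and 0 by voom, beside 0.0244% of all genes, with 2 of the 11 at an unadjusted p under 0.05 beside 11.7% of all genes. The median became -0.82 without control S4 and -0.35 under quantile normalisation, and those 2 became 0 without control C1, 1 without D24 or D27, and 4 without D23 or S4.

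The lowest adjusted p among these side differences was that of ENSOARG00000011731. In left cardiomyocytes it had 2.98, 2.78 and 2.85 log2 CPM in controls C1, S3 and S4, 2.58, 1.58 and 1.04 in transition sheep D23, D24 and D27, and 2.76, 1.91 and 3.05 in chronic sheep D16, D19 and D20. On the right it had 1.95, 2.26 and 2.88 in controls, 3.43, 2.04 and 2.22 in transition and 3.59, 3.11 and 2.43 in chronic sheep. On the left all 3 transition samples were below the controls (share of all genes not counted), and on the right the groups overlapped. Its side difference was -1.15 ± 0.40 (limma estimate ± SE, adjusted p = 0.297), that of ENSOARG00000011100 was -1.17 ± 0.57 (adjusted p = 0.442), and that of ENSOARG00000000877 was -0.90 ± 0.40 (adjusted p = 0.396). In tissue the same side difference had a median of -0.28 over the 11 against -0.02 over all genes, which became -0.11 without control S3, -0.17 without D15, -0.16 without D27 and -0.14 under quantile normalisation. There 0 of the 11 passed by limma and 0 by voom, beside 0.0486% of all genes, and 0 of the 11 were at an unadjusted p under 0.05, beside 8.44% of all genes.

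**Figure D3:**
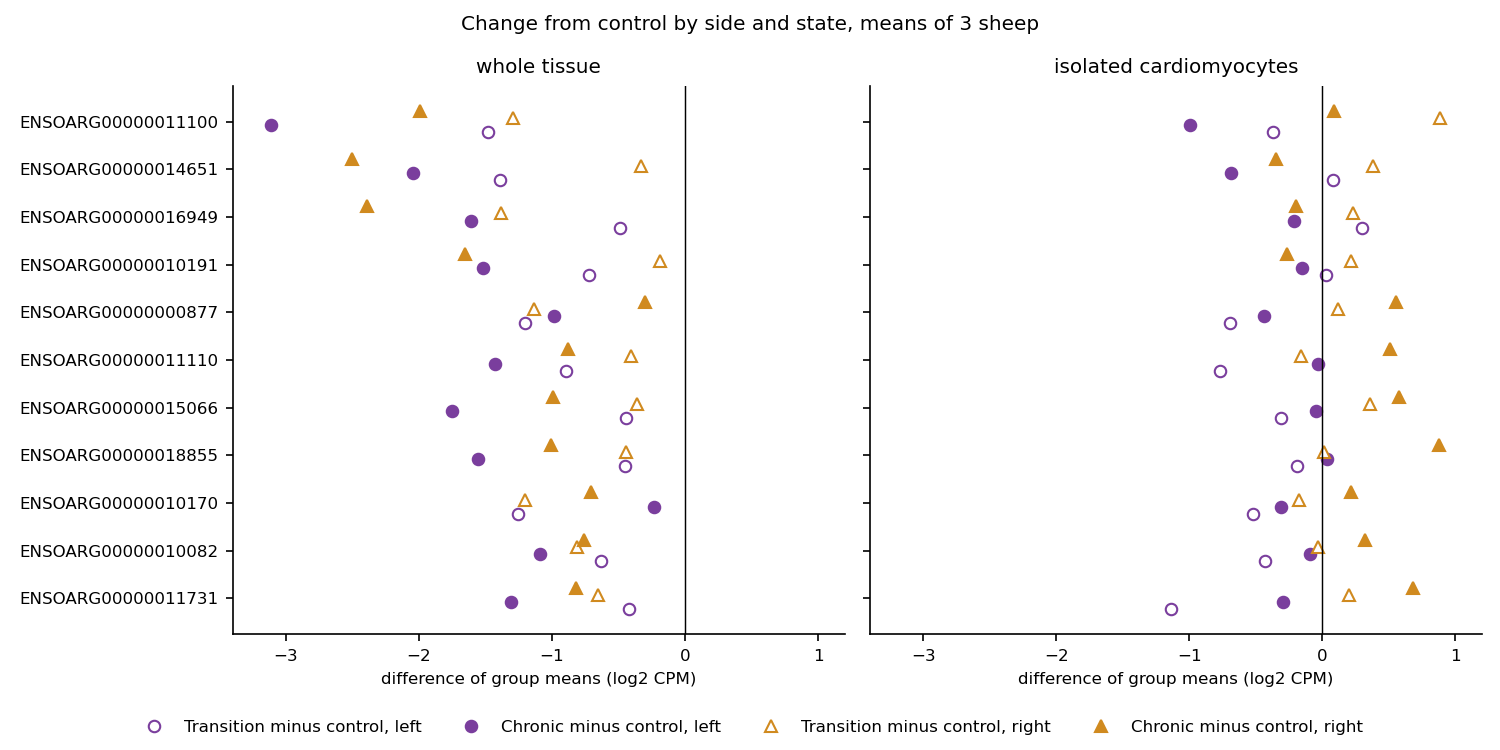
Difference from control of the 3-sheep group means (x axis, log2 CPM) for each of the 11 genes, in whole tissue (left panel) and isolated cardiomyocytes (right panel); open symbols are transition, filled symbols chronic, circles left and triangles right appendages. All tissue points lie below 0, while cardiomyocyte points lie on both sides of it, mostly negative on the left and positive on the right.

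Chronic minus transition in cardiomyocytes had a median of 0.30 over the 11 genes against -0.01 over all, and was negative for 4. Without transition sheep D24 the median was 0.15. By limma 0 of the 11 passed, and 0 by voom, beside 0.0244% of all genes in either direction. At an unadjusted p under 0.05 there was 1 of the 11, ENSOARG00000011110, beside 8.32% of all genes. It spanned 3.63 to 6.09 log2 CPM in transition and 4.74 to 6.13 in chronic cardiomyocytes, with a difference of 0.70 ± 0.33 (limma, adjusted p = 0.599). In tissue the same gene was lower in chronic than in transition sheep, at -0.51 ± 0.22 (limma, adjusted p = 0.424). The difference between the preparations was not tested.

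Left and right appendages, compared within sheep over all states, differed in cardiomyocytes for 4 of the 11 genes. ENSOARG00000010082 spanned 1.13 to 2.38 log2 CPM in left cardiomyocytes with a median of 2.07, against 2.34 to 3.99 on the right with a median of 2.77. The left was lower in 9 of 9 sheep, by -1.06 ± 0.18 (left minus right, limma, adjusted p = 7.48e-04). ENSOARG00000011110 spanned 3.63 to 5.36 on the left with a median of 4.81, against 4.82 to 6.34 on the right with a median of 5.76. It was lower on the left in 8 of 9 sheep, by -0.91 ± 0.16 (limma, adjusted p = 9.30e-04). In tissue the same difference was 0.01 ± 0.12 for ENSOARG00000010082 (limma, adjusted p = 0.968) and -0.02 ± 0.14 for ENSOARG00000011110 (adjusted p = 0.956); the difference between the preparations was not tested.

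ENSOARG00000014651 was lower on the left in 8 of 9 sheep (-0.54 ± 0.19, limma, adjusted p = 0.0482), and ENSOARG00000010191 was higher on the left in 9 of 9 (0.67 ± 0.22, adjusted p = 0.0374). Without control C1, or without control S3, both calls ended and 2 of the 11 passed. The call of ENSOARG00000014651 also ended without D19, D23, D24 or D27, without the filter on low values and under quantile normalisation, and that of ENSOARG00000010191 without D16, D23 or S4 and under library totals. Over all genes 11.3% were lower and 11.7% higher on the left in cardiomyocytes, so the 3 lower and 1 higher of the 11 stand beside a common difference. In tissue 1 of the 11 passed. ENSOARG00000018855 spanned 1.63 to 3.95 log2 CPM on the left with a median of 3.12, against 1.35 to 3.45 on the right with a median of 2.36. It was higher on the left in 8 of 9 sheep, by 0.73 ± 0.20 (limma, adjusted p = 0.0302), beside 3.25% of all genes higher and 5.34% lower on the left. That call ended when any of C1, D15, D16, D30, S3 or S4 was left out, with a limma adjusted p up to 0.144, and also by voom and under library totals. ENSOARG00000010191 was 1.04 ± 0.34 higher on the left of the tissue, in 8 of 9 sheep, and did not pass (limma, adjusted p = 0.0710). It did pass by voom (adjusted p = 0.0470) and without D15 (1.29 ± 0.21, limma, adjusted p = 0.00243), so that 1 of the 11 was called there too, but not the same gene.

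The posterior left atrium was not used by the rule, although 5 of its 12 sheep were. All 11 genes were listed there. Transition sheep had 3 of the 11 lower than control sheep and none higher, beside 8.68% of all genes lower. ENSOARG00000011110 had deposited log2 values of 3.51 to 4.71 in transition sheep, with a median of 4.19, against 5.10 to 5.96 in control sheep with a median of 5.35. No transition sheep reached a control sheep, as for 3.28% of all genes, and the difference was -1.33 ± 0.22 (limma, adjusted p = 0.00123). ENSOARG00000010082 spanned 1.89 to 3.48 with a median of 2.49 in transition sheep, against 3.29 to 4.27 with a median of 3.88 in control sheep. Its 2 groups overlapped through transition sheep G5 and control S4, and the difference was -1.31 ± 0.26 (limma, adjusted p = 0.00422). ENSOARG00000011731 spanned 2.72 to 3.64 with a median of 3.12 in transition sheep, against 3.59 to 4.09 with a median of 3.81 in control sheep, a difference of -0.73 ± 0.15 (limma, adjusted p = 0.00467). With any 1 sheep left out, these 3 stayed at an adjusted p of 0.0176 or below. Without control S4, 5 of the 11 passed.

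Of the other 8, ENSOARG00000015066 was at -0.77 ± 0.28 (limma, adjusted p = 0.0756), ENSOARG00000011100 at -0.70 ± 0.26 (adjusted p = 0.0807), ENSOARG00000018855 at -0.70 ± 0.29 (adjusted p = 0.115) and ENSOARG00000014651 at -0.75 ± 0.45 (adjusted p = 0.279). Including the 3 that passed, 6 of the 11 were at an unadjusted p under 0.05, beside 31.2% of all genes. The remaining 4 lay closer to 0: ENSOARG00000016949 at -0.24, ENSOARG00000000877 at -0.19, ENSOARG00000010170 at -0.01 and ENSOARG00000010191 at 0.07. ENSOARG00000016949 and ENSOARG00000010191 thus were among the 4 largest tissue changes of the appendages and near 0 in the posterior left atrium; that difference was not tested. The median over the 11 was -0.70 against -0.006 over all genes, and -0.43 in S, C and D sheep alone. Over the 81 genes lower in both appendage preparations, the difference of means had a median of -0.93.

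The G sheep are animals that the rule did not use at all. Among them, 5 of the 11 were lower in transition sheep by limma, beside 2.5% of all genes: ENSOARG00000010082, ENSOARG00000011100, ENSOARG00000011110, ENSOARG00000014651 and ENSOARG00000018855. For the same 5, no G transition sheep reached a G control sheep, as for 9.8% of all genes. ENSOARG00000014651 had 0.29, 0.08, 0.37 and -0.14 in transition sheep G13, G26, G34 and G5, against 1.97, 1.83 and 1.84 in controls G21, G32 and G36. Its values in the other sheep overlapped, at 1.04 and 1.90 in transition sheep D24 and D27, against 0.35, 0.12 and 2.01 in controls C1, S3 and S4. In the S, C and D sheep alone 1 of the 11 was lower, ENSOARG00000011110, beside 0.931% of all genes. The change in G sheep minus the change in the others was tested as an interaction: it passed for 0 of the 11 genes and for 0.00831% of all genes. ENSOARG00000014651 (-2.37 ± 0.68) and ENSOARG00000018855 (-1.29 ± 0.50) were the 2 at an unadjusted p under 0.05 (limma, adjusted p = 0.996 for each).

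**Figure D4:**
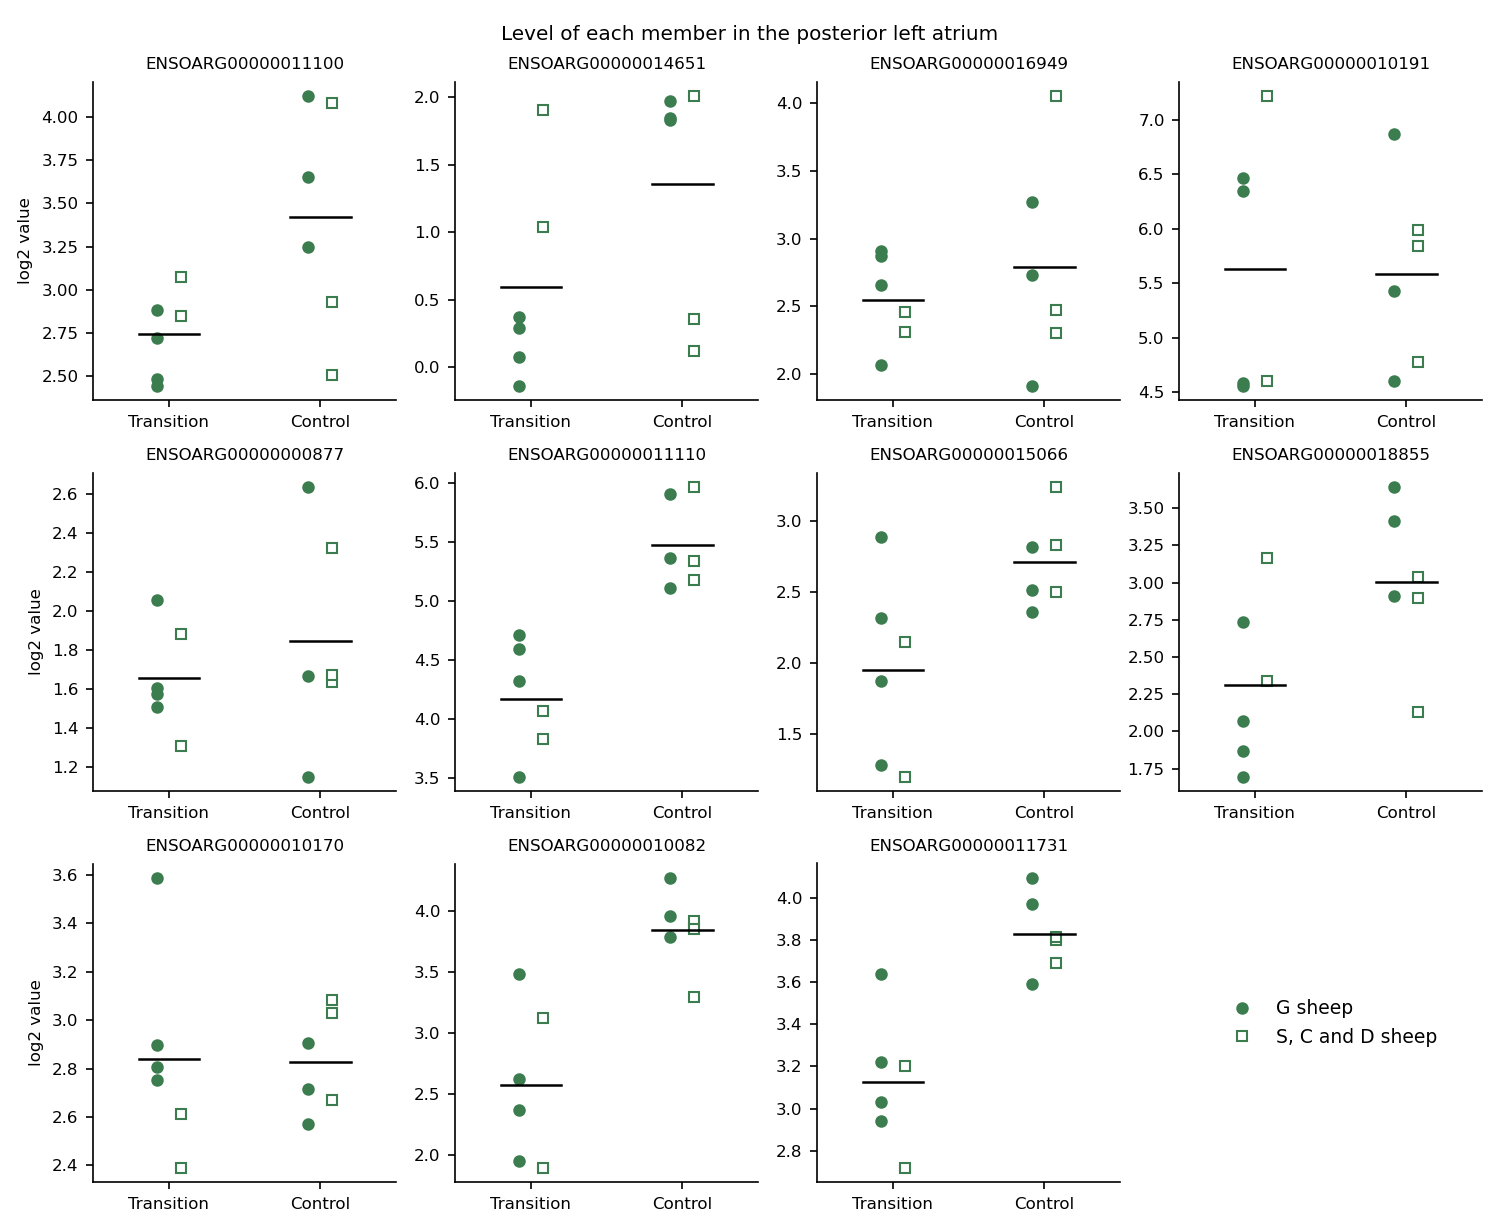
Level of each of the 11 genes in the posterior left atrium (deposited log2 scale) in 6 transition and 6 control sheep; filled circles are G sheep, open squares S, C and D sheep, and bars are means of 6 sheep. For ENSOARG00000011110 all transition sheep lie below all control sheep; ENSOARG00000010191 and ENSOARG00000010170 have near-equal means.

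ENSOARG00000010082, ENSOARG00000011110 and ENSOARG00000011731, the 3 called in the posterior left atrium, had correlated values in cardiomyocytes, as had some of the other 8. After removing group means, their 3 pairwise correlations across 18 cardiomyocyte samples were 0.82 to 0.84, against a median of 0.06 over all 55 pairs of the 11 genes. Genes not called there were alike too: ENSOARG00000000877 had r = 0.81 with ENSOARG00000010082, and ENSOARG00000018855 had 0.71 to 0.77 with each of the 3. In tissue, the pair ENSOARG00000011110 and ENSOARG00000011731 had r = 0.59, while ENSOARG00000010082 had r = 0.12 with ENSOARG00000011110 and 0.11 with ENSOARG00000011731. Across the 12 posterior left atrium sheep the 3 pairs had 0.32 to 0.52. The median over all pairs was 0.08 in tissue and 0.04 in the posterior left atrium, so the 11 genes did not vary as 1 set within groups.

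Tissue and cardiomyocyte levels were set side by side in the 7 sheep that gave both, as a description, since the tables were normalised separately and the rule used both changes. In controls every one of the 11 was higher in tissue than in cardiomyocytes, where 23.7% of all genes were lower in tissue. The median difference was 0.96 (log2 CPM) against 0.32 over all genes. Higher levels in control tissue were clearest for ENSOARG00000018855 (2.32), ENSOARG00000016949 (1.97), ENSOARG00000011100 (1.51) and ENSOARG00000015066 (1.48). In transition sheep the median was 0.88 against 0.34 over all genes, and in chronic sheep -0.15 against 0.37. With states weighted equally, ENSOARG00000018855 (1.81) and ENSOARG00000016949 (1.26) were at the 99.5th and 96.6th percentile of all genes. ENSOARG00000010191 (-0.74) and ENSOARG00000010170 (-0.45) were at the 3.48th and 6.78th. These averages include the paced tissue values by which the genes were chosen. In controls alone both were above 0, at 0.24 for ENSOARG00000010191 and 0.01 for ENSOARG00000010170, but the rule used the control values too.

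**Figure D5:**
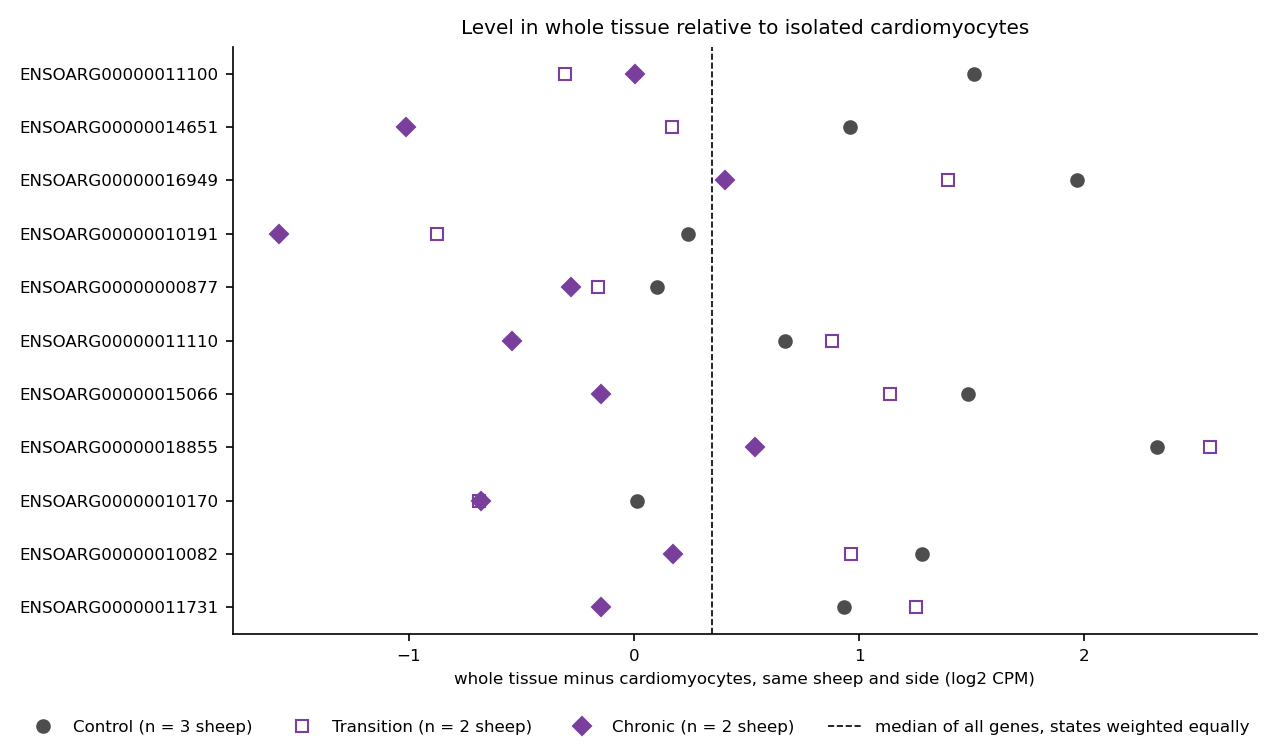
Whole tissue minus isolated cardiomyocyte level (x axis, log2 CPM, means over sheep and sides) of each of the 11 genes in the sheep that gave both: 3 control, 2 transition and 2 chronic. Controls lie at 0.01 to 2.32, and chronic sheep at -1.58 to 0.54.

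The choice of the 11 turned on which sheep were compared. Among the 7 sheep that gave both preparations, 3 of the 11 met the rule: ENSOARG00000010082 (tissue -0.90, cardiomyocytes -0.19), ENSOARG00000010191 (tissue -1.59, cardiomyocytes -0.12) and ENSOARG00000015066 (tissue -0.81, cardiomyocytes 0.18). For the 3 genes with the largest tissue changes over all sheep, the cardiomyocyte means of those 7 sheep were below the threshold: ENSOARG00000011100 was at -1.96 in tissue and -0.30 in cardiomyocytes, ENSOARG00000014651 at -1.66 and -0.28, and ENSOARG00000016949 at -1.46 and -0.39. With any 1 sheep left out, 5 to 10 of the 11 still met the rule, 5 without control C1 and 10 without D24. From the left appendage alone 4 did, and from the right alone 5. With transition sheep alone as paced 3 did, and with chronic sheep alone 5, and these sets had no gene in common. At -1 or lower in tissue and 0 or higher in cardiomyocytes, ENSOARG00000016949 was the 1 gene left.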

How the data were processed

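The authors deposited log2 values per gene for whole tissue, cardiomyocytes and posterior left atrium. Per the submitters' processing notes, RSEM, limma, cutadapt and bcl2fastq were used, with no version. Aligner, genome build, annotation and strandedness: not given in the sources used here. Technical replicates were already merged into 1 column per sheep and site; 0 value columns belonged to no sample. In both appendage tables every value was log2 of whole reads plus 0.5 over a scaled library size (100% of 237366 tissue and 238716 cardiomyocyte values whole within 0.05), so listed reads were recovered. The posterior left atrium values did not give whole reads, and their depth is unknown. The difference between the sets of sheep had been removed from them after the log, and how is not stated. What this does to the p-values of the fits to these values was not tested.

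The 11 genes and all comparisons were chosen with earlier results of these data known, and every one of the 11 is named. Values were fitted with limma 3.58.1 in R 4.3.3 (trended empirical Bayes) over genes with a mean log2 value of at least 0 (12333, 12279 and 12035), adjusting p by Benjamini-Hochberg over all of them, at a threshold of 0.05. Appendage models held state and side with sheep as a random effect (consensus correlation 0.29 in tissue and 0.47 in cardiomyocytes), because left and right samples came from the same animal per the labels. State and the set of sheep (G, or S, C and D) were the terms for posterior left atrium. Sheep are separate animals, 3 per state in each appendage preparation and 6 per state in the posterior left atrium. The p-values for differences between states thus measure the spread between few animals. Those for left against right and for the side difference rest on left minus right within each of these few sheep. On simulated data, 70% to 75% of genes changed by 1 on the log2 scale and 93% to 97% of those changed by 2 were recovered, over the comparisons of chronic with transition (12333 and 12279 genes) and of transition with control (12035 genes). The simulated left and right samples were drawn independently and fitted without sheep as a random effect, unlike the reported appendage fits. Those shares therefore do not give the recovery of the reported appendage fits. A fold on a log2 scale with 0.5 reads added understates changes of low genes. None of the 11 identifiers matched the RefSeq gene table at hand.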

Additional observations from a re-analysis of the deposited data

How the results depend on the processing

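Scaling to library totals, quantile normalisation, no filter on low values, voom weights, each side alone and each sheep left out were tried. Counts of called genes stayed within 1.5 times in 94 of 112 repeats, and no called gene changed sign. A count of 0 in both fits was taken as the same. Chronic against transition and the side difference had 0 in the fit as reported, so this share says little about them. With the stricter rule, which leaves 1 gene, the median turned to -0.47 for chronic minus transition in cardiomyocytes and to 0.84 in tissue and 0.02 in cardiomyocytes for the side difference. Lower in the posterior left atrium were 3 in the fit as reported, 3 to 5 with any sheep left out, 5 in G sheep alone, 1 in S, C and D sheep alone and 0 of the 1 gene meeting the stricter rule. In tissue, chronic against transition gave 0, and 0 to 1 with any sheep left out. Left against right gave 1 in tissue (0 to 1 with any sheep left out, 0 under library totals and 0 under the stricter rule) and 4 in cardiomyocytes (2 to 4 with any sheep left out, 0 under the stricter rule). Without the replicate block for sheep, chronic against transition in tissue gave 1, left against right 0 in tissue and 2 in cardiomyocytes. That fit counts the left and right samples of 1 sheep as separate animals. In it, the SE of ENSOARG00000015066 for chronic minus transition in tissue went from 0.23 to 0.20. The SE of ENSOARG00000010082 for left minus right in cardiomyocytes went from 0.18 to 0.25. Library totals moved the median of all genes to -0.11 for left minus right in tissue and to -0.10 for the side difference in cardiomyocytes. Alternatives added after seeing the data were those on meeting the rule, the interaction with the set of sheep and the counts without overlap; under library totals 10 of the 11 met the rule. The low read numbers of most of these genes limit what can be told apart, also for the absence of a fall in cardiomyocytes. At the median, 9 of them had 27 to 93.5 reads per tissue library and 21 to 51 per cardiomyocyte library.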
